A study of Schizosaccharomyces pombe with 6 samples.

Results

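The comparison described here was heat stress in wild type fission yeast, *Schizosaccharomyces pombe*, measured by RNA sequencing. The control library came from wild type cells grown unstressed in rich medium (YES) at 24°C. The heat library came from wild type cells in the same medium that were moved from 24°C to 36°C, where they stayed for 15 minutes. The series holds 6 libraries, 1 for each condition. A pair of deletion strains grown unstressed in YES at 24°C, *mas5Δ*, which lacks an Hsp40 (J-domain) chaperone, and *ssa2Δ*, which lacks an Hsp70, served for values side by side. Expression was given as FPKM, the fragments assigned to a gene scaled to the length of its transcript and to the size of the library. Members were the genes with a mean FPKM of at least 10 over both libraries and a value above 0 in each, 5111 of the 7008 genes listed. Of the genes left out, 31 had a mean of at least 10 but were listed at 0 in 1 library. The members nearest to the minimum were the non-coding *SPNCRNA.1640* (9.57 and 10.5 FPKM at 24°C and 36°C) and *mug5* (13.3 and 6.74), and the nearest genes below it were *map1* (8.27 and 11.7) and *SPNCRNA.556* (7.82 and 12.2).

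Cells moved to a temperature near the top of their growth range face unfolding proteins, and they answer by making chaperones, proteins that bind unfolded chains, keep them soluble and return them to the folded state. In fission yeast this answer is known to run through the heat shock factor Hsf1, which binds heat shock elements in promoters, and through the stress-activated MAP kinase Sty1 with the transcription factors Atf1 and Pcr1, which bind the cyclic AMP response element (CRE). Sty1 answers many stresses, and its targets include enzymes for protective sugars and for the removal of peroxides. Growing cells spend much of their transcription on ribosomes, and genes for ribosomes and their assembly are known to be turned down by many stresses.

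Each condition had 1 library. There was no replicate check, no test across genes was made, and every value below describes these 2 libraries. A gene is said to have risen or fallen where its log2 ratio of FPKM at 36°C over 24°C lay beyond 1 or -1, a change of more than 2-fold. By this measure 607 members (11.9%) rose and 457 (8.94%) fell, and 4047 lay within 2-fold. The median log2 ratio of all members was -0.01. More than 4-fold rises numbered 226 (4.42%) and falls of that size 69 (1.35%). Beyond 16-fold the numbers were 63 (1.23%) and 3 (0.0587%). The risen genes went from a median of 22.3 FPKM to 82.2 FPKM, and together from 6.53% to 34.0% of the summed FPKM of all members. The fallen genes went from a median of 87.7 FPKM to 32.8 FPKM, and from 10.9% to 3.72% of that sum. The same values chose these genes, so that their levels are a description. RNA came from whole cultures, so that a changed number of cells in a given state and a changed amount of RNA per cell cannot be told apart.

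Both libraries were on a similar scale, with 960217 FPKM in all at 24°C and 1037416 FPKM at 36°C. Rescaling both to the same sum moved the median of all members by -0.11 on the log2 scale and turned the split of called genes from 57.0% risen to 47.4% risen, with 536 genes up and 595 down. The deposited table gives a locus for each gene, and 3420 of the 5111 members share theirs with a neighbouring or overlapping gene. Since no strand setting is stated, reads of overlapping genes may have been split between them. Of the genes alone in their locus 179 rose and 198 fell. The genes described below that share a locus are named with their groups.

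**Figure D1:**
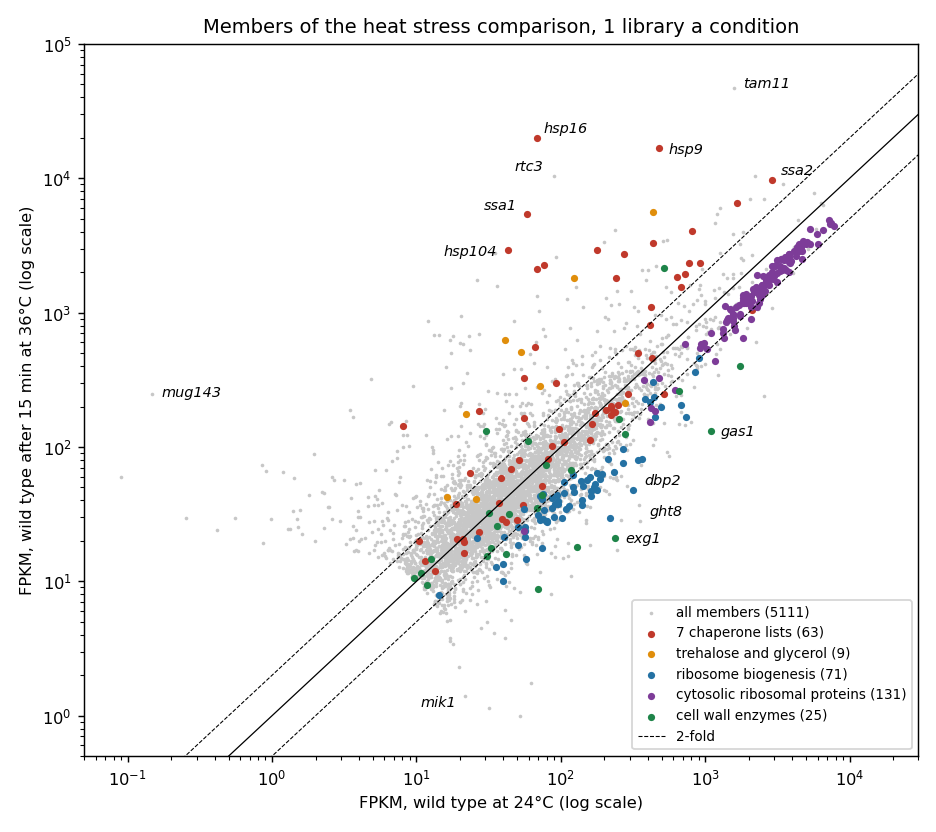
FPKM of every member in the wild type library at 24°C (horizontal) and in the library after 15 min at 36°C (vertical), both on log scales, with 5 groups of genes in colour and dashed lines at 2-fold. The chaperone genes spread from the diagonal to *hsp16* at 19822 FPKM, the ribosomal protein genes lie in a narrow band below the diagonal at the right, and the ribosome biogenesis genes lie mostly below the lower dashed line; *SPNCRNA.297* lies left of the plotted range.

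Of the 45 gene lists described, the small heat shock proteins and the disaggregase had the highest median. Here 6 of 7 members rose and none fell, with a median log2 ratio of 4.13, and the summed level of the list went from 743 to 40516 FPKM. *hsp16*, which encodes a small heat shock protein that holds unfolded proteins in a soluble form, was at 68.1 FPKM at 24°C and at 19822 FPKM at 36°C, a log2 ratio of 8.19. At 36°C it was the second highest of all members. *hsp104*, the disaggregase that pulls proteins out of aggregates, went from 43.2 to 2907 FPKM (log2 ratio 6.07). *hsp9* went from 480.3 to 16750.0 FPKM (5.12) and *hsp20* from 55.4 to 324 FPKM (2.55). Among the glyoxylase III genes of the list *hsp3101* and *hsp3104* rose, with log2 ratios of 4.13 and 3.05, and *hsp3103* had 21.1 and 20.7 FPKM (-0.03). *hsp3101* (8.10 to 142 FPKM), whose ratio is the median of the list, reached the minimum through the heat library. Another 2 genes of the list were no members. *hsp9*, *hsp20*, *hsp3101* and *hsp3104* share a locus with other genes.

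Hsp70 chaperones bind and release unfolded chains, and nucleotide exchange factors set the pace of the release. Of the 7 cytosolic members 5 rose and 1 fell. The Hsp70 gene *ssa1*, low without stress, showed 58.7 FPKM at 24°C and 5445 FPKM at 36°C (log2 ratio 6.53). Its paralogue *ssa2* was already at 2915 FPKM at 24°C and reached 9692 FPKM (1.73). The paralogues thus lay far apart without stress and within a factor of 2 of each other at 36°C. *fes1*, an exchange factor of Hsp70, went from 177 to 2910.4 FPKM (4.04), *pss1*, of the Hsp110 family, from 723 to 1939.5 FPKM (1.42), and *bag101* from 23.3 to 64.1 FPKM (1.46). In contrast *sks2*, the Hsp70 that works at the ribosome, had 2100.4 FPKM at 24°C and 1046 FPKM at 36°C (-1.01), just beyond 2-fold down. Its ribosome-bound J-domain partner *zuo1* lay at 519 and 249 FPKM (-1.06). Centred on the median of all members, or with the 50 highest genes left out of the scaling, *sks2* lay within 2-fold. *bag102*, another exchange factor, had 74.6 and 51.5 FPKM (-0.54). Of these genes, *ssa1*, *fes1*, *bag101* and *bag102* share a locus.

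J-domain proteins bring clients to Hsp70. Of 10 measured in the cytosol 2 rose and 1 fell, with a median of 0.10. *psi1* was the strongly changed member, with 67.9 FPKM at 24°C and 2114 FPKM at 36°C (4.96). *mas5* went from 418 to 810.1 FPKM (0.96), just short of 2-fold, and *cwf23*, a splicing factor with a J-domain, from 18.8 to 37.7 FPKM (1.01). With both libraries at the same sum *cwf23* lay within 2-fold and the median of the list just below 0, and with the 50 highest genes left out of the scaling *mas5* passed 2-fold. The gene *mas5* shares a locus.

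Hsp90 acts late in the folding of kinases and other signalling proteins and works with a set of co-chaperones. Here 6 of 8 members rose and all 8 lay above 0, with a median of 2.54. *hsp90* itself stood at 1666 FPKM at 24°C and at 6583 FPKM at 36°C (1.98). The 5 co-chaperones that rose did so by more than Hsp90 on the log2 scale. *sti1*, which links Hsp70 to Hsp90, went from 273 to 2721 FPKM (3.32), *wis2*, a cyclophilin, from 437 to 3314 FPKM (2.92), *aha1*, which speeds the ATPase of Hsp90, from 243 to 1811 FPKM (2.90), and *cdc37*, the adaptor for kinases, from 27.1 to 184 FPKM (2.77). *wos2* reached 4043 FPKM from 814 FPKM (2.31). *git7* and *cns1* had log2 ratios of 0.59 and 0.05. The loci of *wis2*, *aha1*, *cdc37* and *git7* hold more than 1 gene.

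The answer reached the mitochondria and, in part, the endoplasmic reticulum. Of 9 mitochondrial chaperones 5 rose. *hsp78*, the mitochondrial relative of the disaggregase, went from 76.9 to 2247 FPKM (4.87). The chaperonin subunits *mcp60* (772 to 2346 FPKM) and *hsp10* (919 to 2329.5 FPKM), the Hsp70 *ssc1* (681 to 1557 FPKM) and its J-domain partner *mdj1* (55.2 to 164 FPKM) had log2 ratios between 1.19 and 1.60. The import motor parts *tim44* and *mge1* had log2 ratios of -0.80 and -0.28. In the endoplasmic reticulum 3 of 14 folding genes rose, the Hsp70 *bip1* (636 to 1853 FPKM, 1.54), the lectin chaperone *cnx1* (420.2 to 1105 FPKM, 1.40) and the oxidase *ero11* (92.9 to 298 FPKM, 1.68), while *ire1*, the sensor of unfolded proteins in that compartment, had 21.3 and 16.4 FPKM (-0.38). The chaperonin CCT, which folds actin and tubulin, stood apart, since none of its 8 subunits changed and the log2 ratios ran from -0.51 for *cct4* to 0.07 for *cct2*. Here *mcp60*, *hsp10*, *ssc1*, *mdj1*, *cnx1*, *ero11*, *ire1*, *cct4* and *cct2* are not alone in their locus.

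**Figure D2:**
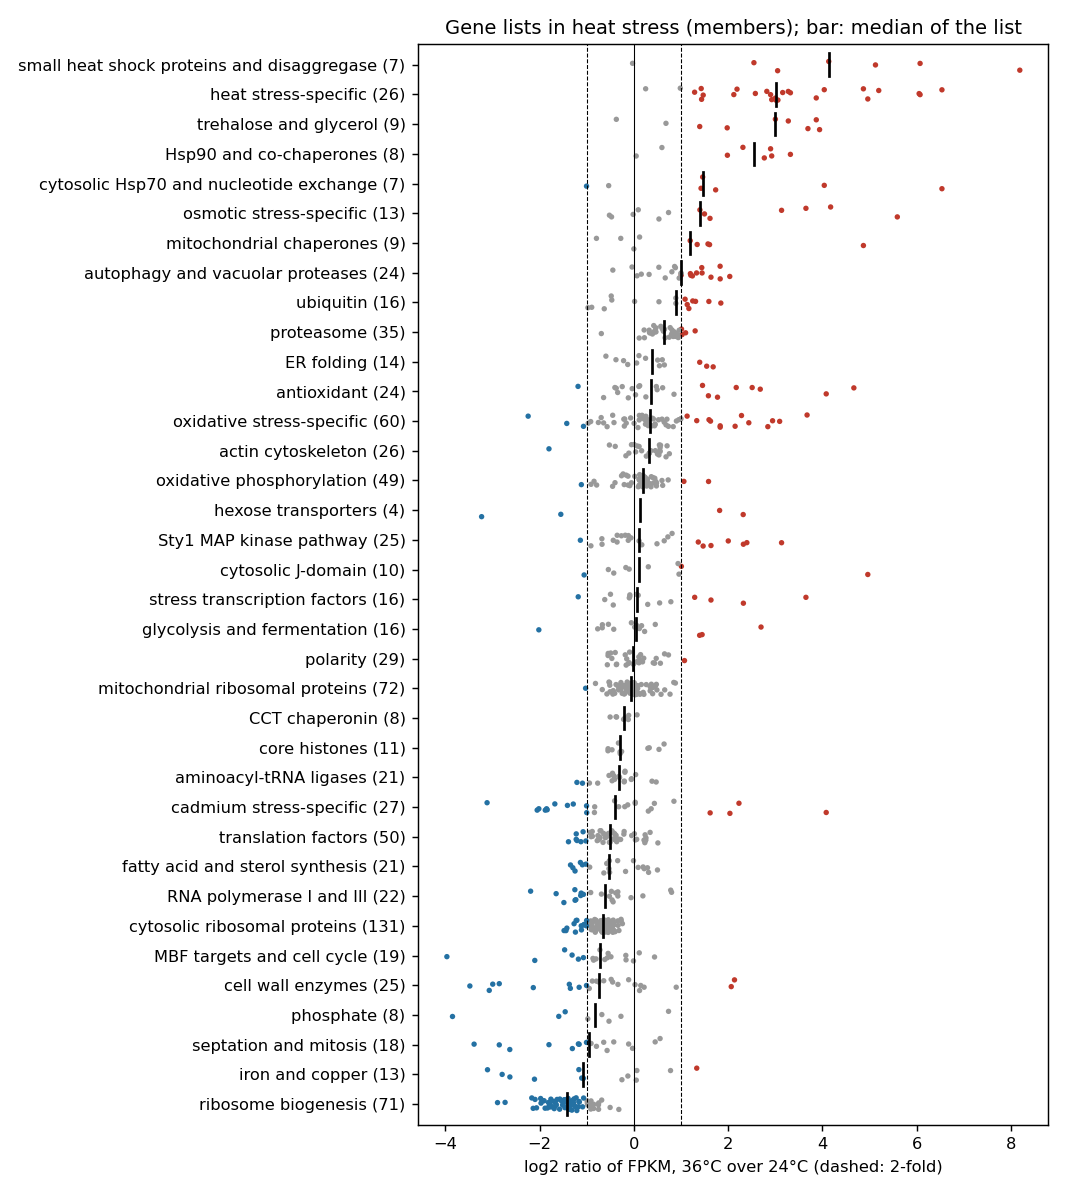
log2 ratio of FPKM at 36°C over 24°C (horizontal) for each member of 36 gene lists (rows, with the number of members), sorted by the list's median, which a black bar marks; red points rose and blue points fell by more than 2-fold (dashed lines). The small heat shock proteins and disaggregase are at the top with a median of 4.13 and ribosome biogenesis at the bottom with -1.42.

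Promoters of the chaperone genes are shown because the heat shock element, the site that Hsf1 is known to bind, could be looked for in them. The letters searched were GAANNTTCNNGAA on either strand, with N any base and at most 1 mismatch in the 9 fixed letters, in the 250 bases before the RefSeq start of a gene (assembly ASM294v3); matches may overlap each other. Each line gives the 130 bases directly before the start, read along the gene's strand, with the matches in capitals.
ssa1: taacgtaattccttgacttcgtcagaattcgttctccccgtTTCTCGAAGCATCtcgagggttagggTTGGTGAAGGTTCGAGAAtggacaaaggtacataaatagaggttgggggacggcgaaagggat
hsp16: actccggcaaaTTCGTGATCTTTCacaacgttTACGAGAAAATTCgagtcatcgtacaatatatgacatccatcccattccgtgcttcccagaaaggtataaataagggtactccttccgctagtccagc
hsp104: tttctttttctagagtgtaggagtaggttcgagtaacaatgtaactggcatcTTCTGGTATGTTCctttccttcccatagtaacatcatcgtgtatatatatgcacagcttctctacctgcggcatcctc
hsp90: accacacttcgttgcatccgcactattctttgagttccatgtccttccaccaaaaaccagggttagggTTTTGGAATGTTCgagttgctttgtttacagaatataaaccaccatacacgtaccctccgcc
psi1: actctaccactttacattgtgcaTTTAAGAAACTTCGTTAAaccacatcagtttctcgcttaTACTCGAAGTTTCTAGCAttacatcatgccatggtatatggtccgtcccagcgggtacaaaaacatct
All 5 genes lie on the minus strand, and the stretches shown lie at chrI:2297965-2298094 (*ssa1*), chrII:2660993-2661122 (*hsp16*), chrII:3615270-3615399 (*hsp104*), chrI:3891140-3891269 (*hsp90*) and chrIII:2195535-2195664 (*psi1*). In *ssa1* a match without mismatch began 58 bases before the start and overlapped a match at 63, with another at 89. *hsp16* had matches at 98 and 119, *hsp104* at 78, *hsp90* at 62, and *psi1* 4 matches at 63, 68, 102 and 107.

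Over all 4557 protein coding members with a whole window, 423 (9.28%) held such a match. Among the 27 genes of the chaperone lists that rose, CCT left aside, 19 (70.4%) held it, and among the 28 members of those lists that did not rise 4 did (14.3%). Without any mismatch the letters were found in 19 of the 4557 windows (0.417%), 4 of which belonged to risen chaperone genes. In *sti1* the matches lay at 71 and 81 bases before the start and in *aha1* at 73, 78 and 83. A match describes these letters only, and binding of a factor was not measured.

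Enzymes for trehalose and glycerol, small molecules that protect proteins and balance osmotic pressure, rose together. Of 9 members 7 rose and none fell, with a median log2 ratio of 3.00 and a summed level that went from 1062 to 9284 FPKM. *gpd1*, which makes the precursor of glycerol, had 432 FPKM at 24°C and 5575 FPKM at 36°C (3.69). The trehalose synthesis genes *tps1* (124 to 1809 FPKM, 3.87) and *tps3* (53 to 513 FPKM, 3.27) rose, as did *ntp1* (41.1 to 631 FPKM, 3.94), which encodes the neutral trehalase that breaks trehalose down. Genes for making and for degrading the sugar were thus high in the same library. *tps2* and *gpd2* lay at 0.68 and -0.37. *tps1*, *tps3*, *ntp1*, *tps2* and *gpd2* share a locus with other genes.

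Genes that remove peroxides and repair oxidised thiols formed the next group. Of 24 antioxidant members 8 rose and 1 fell, with a median of 0.36, so that most of the list stayed within 2-fold. The catalase gene *ctt1* went from 27.2 to 691 FPKM (4.67) and the glutathione peroxidase gene *gpx1* from 199 to 3355 FPKM (4.08). *grx1*, a glutaredoxin, went from 545 to 3489 FPKM (2.68). The abundant thiol proteins were already high at 24°C, *tpx1*, the main peroxiredoxin, at 2047 FPKM and *trx1*, a thioredoxin, at 2539.7 FPKM, and they reached 6996 and 6961 FPKM. *trx2*, the mitochondrial thioredoxin, had 98.3 and 43.2 FPKM (-1.19). Of these genes, *gpx1*, *tpx1*, *trx1* and *trx2* share a locus.

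Within the Sty1 pathway some brakes and targets rose while the kinase itself did not. Of 25 members 7 rose and 1 fell, and the median of 0.11 lay just below 0 with both libraries at the same sum. *pyp2*, a phosphatase that switches Sty1 off, went from 5.49 to 48.1 FPKM (3.13), *ptc1*, another phosphatase of the pathway, from 39.6 to 158 FPKM (2.00), and *srk1*, a kinase that Sty1 activates, from 27.5 to 144 FPKM (2.40). *sty1* itself lay at 186 and 209 FPKM (0.17) and its activating kinase *wis1* at 18.3 and 8.31 FPKM (-1.14). Of 16 stress transcription factors 4 rose and 1 fell. *pcr1* went from 49.3 to 247 FPKM (2.32), its partner *atf1* reached 147 FPKM from 47.5 FPKM, and *rsv2* went from 8.02 to 101 FPKM (3.65). *hsf1*, the heat shock factor gene, had 62.1 and 76.1 FPKM (0.29) and *pap1*, a factor of the oxidative response, 76 and 131 FPKM (0.78). The factor *fil1* had 67.9 and 29.9 FPKM (-1.18). Of all members 11.9% rose and 8.94% fell. *pyp2* and *rsv2*, under 10 FPKM at 24°C, reached the minimum through the heat library, and *wis1* reached it through the library at 24°C. Another 3 genes of the pathway list and 5 of the transcription factor list were no members. The loci of *pyp2*, *srk1*, *sty1*, *atf1*, *rsv2* and *hsf1* hold more than 1 gene.

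A second set of promoters is shown for the CRE core, the letters TGACGT on either strand (ACGTCA in reverse), which Atf1 and Pcr1 are known to bind. *ctt1* and *gpd1* are examples with the core from the antioxidant and the trehalose and glycerol lists, in which most members lack it. *rds1* is among the largest rises, with 34.9 FPKM at 24°C and 2759 FPKM at 36°C (6.30). Each line again gives the 130 bases before the start with the core in capitals.
ctt1: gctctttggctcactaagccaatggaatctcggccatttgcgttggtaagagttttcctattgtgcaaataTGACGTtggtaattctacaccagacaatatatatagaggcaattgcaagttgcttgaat
gpd1: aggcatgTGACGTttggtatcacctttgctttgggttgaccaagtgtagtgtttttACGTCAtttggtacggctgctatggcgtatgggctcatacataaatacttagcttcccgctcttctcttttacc
rds1: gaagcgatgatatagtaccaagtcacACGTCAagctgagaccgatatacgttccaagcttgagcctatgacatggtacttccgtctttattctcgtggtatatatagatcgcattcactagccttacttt
These stretches lie at chrIII:58834-58963 on the minus strand (*ctt1*) and at chrII:4035436-4035565 and chrI:1667609-1667738 on the plus strand (*gpd1*, *rds1*). The core began 59 bases before the start of *ctt1*, 123 and 74 bases before that of *gpd1* and 104 bases before that of *rds1*. Of all windows 17 held both motifs, and in 0 of them did a match of one overlap a match of the other. The locus of *rds1* holds more than 1 gene.

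The share of genes with a CRE core went up with the size of the rise. It was 5.55% over all 4557 windows (253 genes), 4.14% among genes within 2-fold, 12.6% at rises of 2- to 4-fold, 25.2% at 4- to 16-fold and 31.7% beyond 16-fold (13 of 41 genes). The heat shock element went the same way, from 8.63% within 2-fold to 42 of 301, 19 of 119 and 11 of 41 genes in the same classes of rise. Of the 41 genes beyond 16-fold 12 held the CRE core only, 10 the heat shock element only, 1 held both and 18 held neither. Among the risen chaperones 2 of 27 had a CRE core. The antioxidant list held the core in 5 of 24 windows and the heat shock element in 4 of 24. In the trehalose and glycerol list each motif was in 3 of 9 windows. Introns differed along the same scale. An intron in the coding sequence was annotated in 48.5% of all protein coding members and in 51.7% of those within 2-fold, but in 16.9% of the genes that rose more than 4-fold (27 of 160) and in 21.4% of those that fell more than 4-fold (12 of 56).

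**Figure D3:**
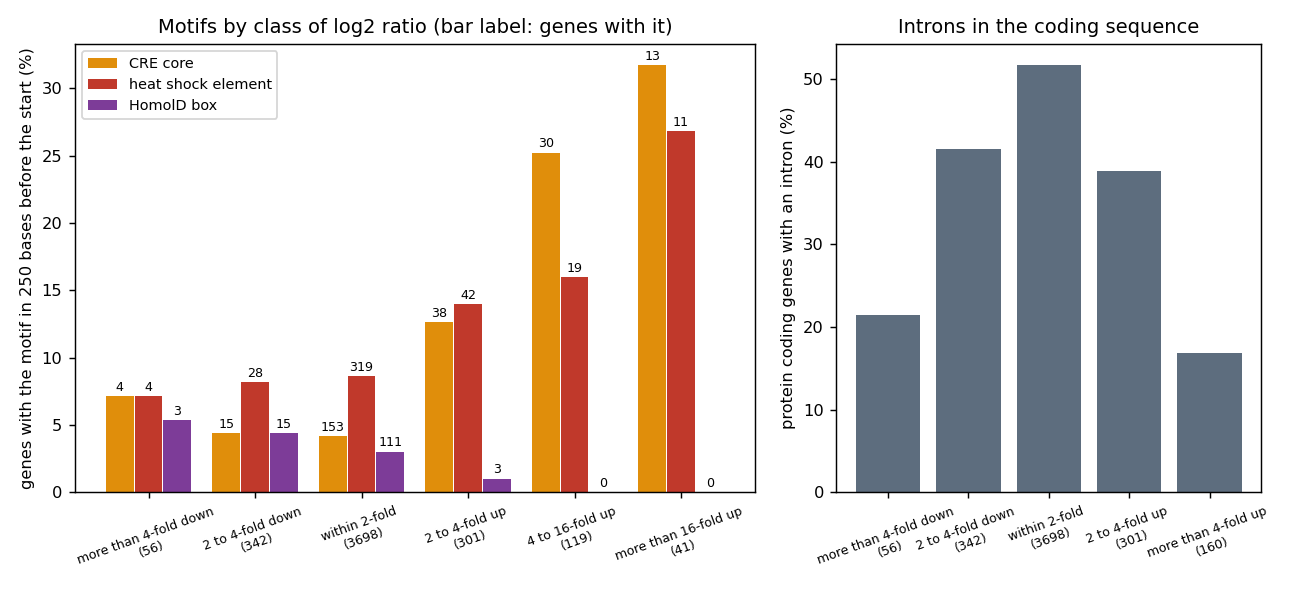
Left, percent of protein coding members with the CRE core, the heat shock element or the HomolD box in the 250 bases before the start, by class of log2 ratio (number of genes in brackets, genes with the motif above each bar). Right, percent of protein coding members with an intron in the same classes, with all rises beyond 4-fold joined. The CRE and heat shock element bars are highest in the genes that rose more than 16-fold, and the intron bars are lowest at both ends.

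Beyond the groups, the 20 largest rises held 7 non-coding RNAs and several genes of little known function. *rtc3*, of the SBDS family, went from 89.7 to 10347 FPKM (6.85) and was the fifth highest member at 36°C. *lsd90* went from 12 to 866 FPKM (6.17), *ddr48* from 26.3 to 1737 FPKM (6.05) and *SPAC27D7.09c*, of the But2 family, from 13.2 to 685 FPKM (5.69). These genes were low to moderate at 24°C and among the upper part of all members at 36°C. The uncharacterised *SPCC338.18* reached 319.8 FPKM from 4.83 FPKM (6.05). At the very top, *SPNCRNA.297* (0.000739 to 94.4 FPKM), *mug143* (0.148 to 249.6 FPKM), *SPBC1105.13c* (0.0891 to 59.9 FPKM) and *SPNCRNA.540* (0.253 to 29.7 FPKM) had values so near 0 at 24°C that their ratios depend on these small numbers. The highest value of the heat library belonged to *tam11*, a short gene of 340 bases, at 1590.2 FPKM at 24°C and 46947 FPKM at 36°C (4.88), which alone made up 4.53% of all FPKM. Its promoter held a CRE core 79 bases before the start. Here *ddr48*, *SPNCRNA.297*, *mug143*, *SPBC1105.13c* and *SPNCRNA.540* are not alone in their locus.

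Among the 20 largest falls were genes of several groups described below and some that belong to none of them. *SPAC8E11.10*, a sorbose reductase, went from 354 to 28.3 FPKM (-3.64) and *SPAC1039.02*, annotated as a phosphoprotein phosphatase, from 260.2 to 28.6 FPKM (-3.19). *SPBC887.17*, of the membrane transporter list described below, had 118 and 10.9 FPKM (-3.43). No gene of the chaperone lists was among them. *SPAC8E11.10* and *SPBC887.17* share a locus with other genes.

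**Figure D4:**
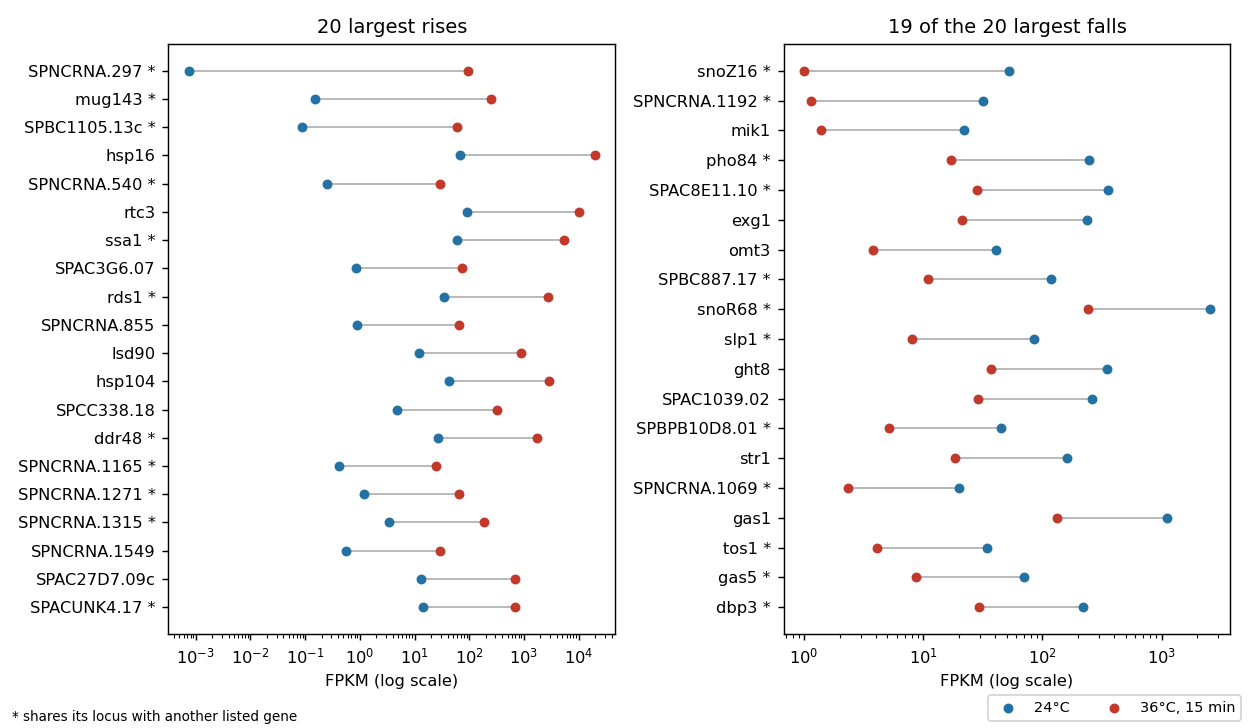
FPKM (log scale) at 24°C (blue) and after 15 min at 36°C (red) for the 20 members with the largest rises (left) and 19 of the 20 with the largest falls (right), each row a gene and its line the distance between the libraries; an asterisk marks genes that share a locus. *hsp16* and *rtc3* end highest on the left, and *snoZ16* and *mik1* end below 2 FPKM on the right.

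Genes of protein breakdown were read in 3 lists, each with a median above 0. Of 16 ubiquitin genes 7 rose and none fell, with a median of 0.89, and with both libraries at the same sum 2 fell. *ubi4*, the polyubiquitin gene, went from 58.8 to 211 FPKM (1.84), *cdc48*, the ATPase that extracts tagged proteins, from 345 to 1037 FPKM (1.59) and *san1*, a ubiquitin ligase for misfolded proteins, from 39 to 96.6 FPKM (1.31). A ubiquitin gene fused to a ribosomal protein gene, *ubi3*, lay at 5831 and 4209 FPKM (-0.47). Of 35 proteasome genes 34 lay above 0, with a median of 0.65, and 4 rose beyond 2-fold, led by *rpn11* (169 to 415 FPKM, 1.30); with both libraries at the same sum 1 did. The share of proteasome genes beyond 2-fold was thus near that of all members. Of 24 genes for autophagy and vacuolar proteases 11 rose and none fell, with a median of 1.00. *atg9*, needed to build the autophagosome membrane, went from 18 to 73.5 FPKM (2.03), *atg8*, the protein that marks its membrane, from 82.9 to 190.0 FPKM and *isp6*, a vacuolar serine protease, from 57.3 to 204 FPKM (1.83). Of these genes, *cdc48*, *san1*, *rpn11*, *atg8* and *isp6* share a locus.

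Genes of carbon use split. Of 8 hexose transporters 4 were members, and all 4 lay beyond 2-fold, *ght3* and *ght2* upward (4.14 to 20.6 and 87.6 to 309 FPKM) and *ght8* and *ght5* downward (346 to 36.8 and 55.7 to 19 FPKM). *ght3* reached the minimum through its value at 36°C. Of 16 genes of glycolysis and fermentation 3 rose and 1 fell, and the median was 0.03, just below 0 with both libraries at the same sum. *pgk1* went from 3475 to 9129.5 FPKM (1.39), *pgi1* from 721 to 1963 FPKM (1.45), and *gpd3*, a second glyceraldehyde 3-phosphate dehydrogenase, from 65.6 to 425 FPKM (2.70), whereas its abundant paralogue *tdh1* had 5642 and 7719.8 FPKM (0.45). Among 13 genes of glucose repression and protein kinase A signalling 2 rose, *pka1*, the catalytic subunit (29 to 179.7 FPKM, 2.63), and *git5*, a G protein beta subunit (14.7 to 61.3 FPKM, 2.06), and 1 fell, the corepressor gene *ssn6* (23.5 to 7.27 FPKM, -1.69). Oxidative phosphorylation had 2 rises and 1 fall in 49 members and a median of 0.20. In the sterol and fatty acid list none of 21 rose and 6 fell, among them *elo2* (-1.35), *erg11* (-1.25), *erg25* (-1.09) and the desaturase gene *ole1* (354 to 175 FPKM, -1.02), which lay within 2-fold when the 50 highest genes were left out of the scaling. The loci of *pgi1*, *gpd3* and *tdh1* hold more than 1 gene.

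The lowest median of the 45 lists was that of ribosome biogenesis, the processing and assembly of ribosomal RNA and proteins in the nucleolus. All 71 members lay below 0, 56 fell and none rose, with a median of -1.42 and a summed level that went from 13241 to 5062 FPKM. The helicase genes *dbp3* (219 to 29.4 FPKM, -2.89) and *dbp2* (317 to 47.6 FPKM, -2.73) fell most. *gar2*, a nucleolin-like protein, went from 742 to 168 FPKM (-2.14), *rlp24*, an assembly factor of the large subunit, from 340.4 to 79.5 FPKM (-2.10), and *fib1*, the methyltransferase that modifies ribosomal RNA, from 851 to 364 FPKM (-1.23). Least changed were *cgr1* at -0.32 and *tif6* at -0.51. RNA polymerases I and III, which transcribe ribosomal and transfer RNA genes, had 9 falls and no rise in 22 members and a median of -0.61. Of these *rpa49* had 94.6 and 20.7 FPKM (-2.19) and *rpc11* 196 and 62.5 FPKM (-1.65), while *maf1*, the repressor of polymerase III, lay at 0.78. Here *dbp3*, *gar2*, *rlp24*, *fib1*, *cgr1* and *rpa49* are not alone in their locus.

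Ribosomal proteins moved less and more evenly. All 131 cytosolic ribosomal protein genes lay below 0, with log2 ratios from -1.48 (*rps2601*) to -0.25 (*rpl3002*) and a median of -0.65. Only 13 passed 2-fold, a share near the 8.94% of all members that fell, and 21 did with both libraries at the same sum. The summed level of the list went from 366739 to 235043 FPKM. Many of these genes are near-identical pairs between which reads may have been divided, so that a single member is less certain than the list. *rpl29*, the highest gene at 24°C, had 7753 FPKM there and 4390.4 FPKM at 36°C (-0.82), and *rps20* had 7397 and 4687 FPKM (-0.66). Ribosomal proteins of the mitochondria did not share this shift, with 1 fall and no rise in 72 members and a median of -0.06. Of 50 translation factors 7 fell and none rose, with *tef3*, an elongation factor found in fungi, at 1258 and 538 FPKM (-1.23) and *sce3*, a factor of the initiation machinery, at 624 and 238 FPKM (-1.39). Of 21 aminoacyl-tRNA ligases 2 fell, *mrs1* (-1.21) and *prs1* (-1.09), a share near the 8.94% of all members. *rps2601*, *rps20*, *sce3*, *mrs1* and *prs1* share a locus with other genes.

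The promoter of *rpl3401*, among the highest genes at 24°C with 7239.7 FPKM and at 4899 FPKM after heat, is shown with its HomolD box, the letters CAGTCACA on either strand (TGTGACTG in reverse), a known promoter element of ribosomal protein genes. The 130 bases before the start follow, with the box in capitals.
rpl3401: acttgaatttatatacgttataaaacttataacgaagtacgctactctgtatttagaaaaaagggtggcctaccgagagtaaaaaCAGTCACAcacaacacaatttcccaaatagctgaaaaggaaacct
The stretch lies at chrI:4093799-4093928 on the minus strand. The box was in 83 of the 131 ribosomal protein windows (63.4%), against 132 of all 4557 (2.90%), and in none of the 160 genes that rose more than 4-fold.

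Falls outnumbered rises among enzymes of the cell wall and genes of cell separation, though most members of both lists stayed within 2-fold. In the cell wall list 9 of 25 members fell and 2 rose, with a median of -0.75. *gas1*, which lengthens the glucan chains of the wall, went from 1104 to 131 FPKM (-3.07), *exg1*, a glucanase, from 235 to 21.1 FPKM (-3.48) and *ecm33*, a cell surface protein, from 1751 to 399 FPKM (-2.14). Their relatives *gas2* (516 to 2156 FPKM, 2.06) and *exg3* (30.1 to 132 FPKM, 2.13) went up. Enzymes of the same families thus moved in opposite directions. Of 18 septation and mitosis genes 8 fell and none rose, with a median of -0.95. *eng1*, the glucanase that cuts the septum, went from 130.1 to 17.9 FPKM (-2.86), *slp1*, the activator of the anaphase promoting complex, from 85.1 to 8.11 FPKM (-3.39) and *cdc15*, a protein of the contractile ring, from 39.9 to 11.4 FPKM (-1.80). *plo1*, the polo kinase, had 26.3 and 11.6 FPKM (-1.18). Of these genes, *gas2*, *exg3*, *slp1* and *cdc15* share a locus.

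A list of targets of MBF, the factor for genes of the start of S phase, and of other cell cycle genes had 6 falls and no rise in 19 members and a median of -0.72, with *plo1* among the falls. *mik1*, a kinase that restrains entry into mitosis, went from 21.8 to 1.39 FPKM (-3.97). *cdc22*, the large subunit of ribonucleotide reductase, went from 263 to 61.2 FPKM (-2.10), *cdc18* from 29.5 to 10.6 FPKM (-1.47) and *cdt1* from 33.4 to 13.4 FPKM (-1.31), the last pair being loaders of the replicative helicase. Other MBF targets of the list lay within 2-fold, among them *suc22* (0.44), *cig2* (-0.17), *nrm1* (-0.49) and *yox1* (-0.56). Core histone genes, whose copies are near-identical, did not change, with 11 log2 ratios from -0.55 (*hta2*) to 0.64 (*hhf3*). The promoter of *cdc22* is shown for the MluI cell cycle box, the palindrome ACGCGT that MBF is known to bind, in capitals below.
cdc22: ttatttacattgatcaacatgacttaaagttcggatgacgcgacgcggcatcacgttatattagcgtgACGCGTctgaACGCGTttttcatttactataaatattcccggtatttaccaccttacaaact
This stretch lies at chrI:4226840-4226969 on the plus strand and holds the box 62 and 52 bases before the start. The box was found in 7 of the 19 windows of the list (36.8%) and in 117 of all 4557 (2.57%). Among all genes that fell, it was in 14 of 342 (4.09%) at 2- to 4-fold and in 2 of 56 (3.57%) beyond 4-fold. How many cells stood at each cell cycle stage was not measured in these libraries. The loci of *cdc18*, *suc22*, *cig2*, *nrm1*, *yox1* and *hhf3* hold more than 1 gene.

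Genes of polarized growth, which the study followed under heat, stayed within 2-fold but for *bud6*. Of 29 polarity genes 28 lay within 2-fold, with log2 ratios from -0.56 for *rga4*, the GTPase activating protein of Cdc42, to 1.07 for *bud6* (15.6 to 32.8 FPKM). The gene of the GTPase *cdc42* had 435 and 336 FPKM (-0.37) and its exchange factors *scd1* and *gef1* had log2 ratios of 0.47 and -0.15. The tip markers *tea1*, *tea4* and *pom1* lay at -0.18, 0.65 and -0.55. In the actin list 25 of 26 lay within 2-fold and *cdc15* fell, with *act1* at 1764 and 1975 FPKM (0.16). With both libraries at the same sum *bud6* too lay within 2-fold. The gene *scd1* shares a locus.

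Transcripts of several genes for nutrient uptake were lower in the heat library. In the iron and copper list 7 of 13 fell and 1 rose, with a median of -1.07. The siderophore transporters *str1* (159 to 18.5 FPKM, -3.11) and *str3* (58 to 13.4 FPKM, -2.11), the iron permease *fip1* (104 to 15 FPKM, -2.80) and the reductase *frp1* (51.8 to 8.35 FPKM, -2.63) fell together, whereas *sib2*, an enzyme of siderophore synthesis, went from 28.7 to 72.2 FPKM (1.33). Phosphate genes had 3 falls and no rise in 8, *pho84*, a phosphate transporter, at 245 and 17 FPKM (-3.85) and the phosphatase genes *pho4* (-1.59) and *pho1* (-1.46). In the zinc and alcohol dehydrogenase list *zym1*, the metallothionein, went from 36 to 254 FPKM (2.82), while *zrt1*, a zinc transporter, and *adh4* fell, with log2 ratios of -1.68 and -2.02. In a list of 57 membrane transporters, which holds *fip1* and *zrt1* too, 9 fell and 2 rose, 14 and 2 with both libraries at the same sum. Thiamine genes had 2 falls and no rise in 8, and the sulfur list 2 falls, *sua1* (-1.22) and *met14* (-1.13), and 1 rise, *hmt1* (1.18), in 12. Here *sib2*, *pho84*, *pho4*, *zrt1*, *sua1*, *met14* and *hmt1* are not alone in their locus.

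Many of the non-coding RNAs that rose reached the minimum mean through the heat library. Of 538 members with a non-coding identifier 142 (26.4%) rose and 56 (10.4%) fell, against 465 (10.2%) and 401 (8.77%) of 4573 coding members. Of the 142 that rose 82 lay under 10 FPKM at 24°C, against 67 of the 465 coding genes that rose, so that the minimum itself favours large ratios among non-coding members and the shares are no comparison of the kinds. Alone in their locus, 18 of 81 rose (22.2%) and 15 fell (18.5%). *SPNCRNA.855* went from 0.903 to 66 FPKM (6.19) and *SPNCRNA.1549* from 0.552 to 29.7 FPKM (5.75), both alone in their locus, while *omt3*, a meiotic long non-coding RNA, went from 40.9 to 3.77 FPKM (-3.44). Of 42 small nucleolar RNAs 4 rose and 9 fell, from *snoZ16* (51.9 to 0.995 FPKM) to *sno52* (2224 to 10476 FPKM). These RNAs are short and were measured in RNA selected by poly-A, so their FPKM is uncertain. Genes named for expression in meiosis (*mug* and *meu*) had 10 rises and 3 falls in 57 members, with *mug35* at 17.2 and 629 FPKM (5.19). Of all members 11.9% rose and 8.94% fell. Another 58 of these genes were no members. Of the rises, *mug143* and *mug147* (6.44 to 148 FPKM) reached the minimum through the heat library. Of the falls, *mug103* (15.1 to 6.64 FPKM) reached it through the library at 24°C. Mating and meiosis regulators had 1 rise in 11, *fus1* (1.79). Heterochromatin and RNAi genes had 2 rises, *tas3* (1.52) and *stc1* (1.27), and 1 fall, *sir2* (-1.06), in 20. The shares of rises in the mating list and the heterochromatin list were near the 11.9% of all members. *fus1* (5.71 to 19.7 FPKM) and *stc1* (8.97 to 21.6 FPKM) reached the minimum through the heat library. Another 13 genes of the mating list were no members. *snoZ16*, *sno52*, *mug35*, *mug143*, *mug147*, *fus1*, *stc1* and *sir2* share a locus with other genes.

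Lists of stress-specific genes, which the study took from earlier profiling, were read beside these counts. Of 26 heat stress-specific members 24 rose and none fell, with a median of 3.01, and the 2 others were *mug135* (0.98) and *pho842* (0.25). Besides the chaperones the list held *zym1* and *ppp16*, an acylpeptide hydrolase that went from 61.1 to 493 FPKM (3.01). Of 13 osmotic stress-specific members 7 rose and none fell, with a median of 1.40, led by *SPACUNK4.17*, an NAD-binding dehydrogenase (14.2 to 684 FPKM, 5.59). Another 7 genes of the osmotic list were no members. Of the risen members, *SPAC513.02* (3.13 to 56.4 FPKM) and *rsv2* (8.02 to 101 FPKM) reached the minimum through the heat library, so that the minimum favours rises here. Of 60 oxidative stress-specific members 13 rose and 3 fell (median 0.35), and of 27 cadmium stress-specific members 4 rose and 11 fell (median -0.41). Of all members 11.9% rose and 8.94% fell. Another 8 and 5 genes of these lists were no members. Of the rises, *SPAC4H3.03c* (7.29 to 92.9 FPKM) and *SPBPB2B2.05* (1.51 to 25.6 FPKM) reached the minimum through the heat library. Falls of the cadmium list included the uracil-regulated *urg2* (242 to 58.2 FPKM, -2.05) and the cysteine transporter gene *SPBPB10D8.01* (45 to 5.19 FPKM, -3.12). *SPBPB10D8.01* reached the minimum through the library at 24°C. The heat stress-specific list had a heat shock element match in 10 of 26 windows and a CRE core in none. The osmotic list had a CRE core in 5 of 13 windows. Of the osmotic genes with the core *rsv2* rose, but *SPAC25B8.12c* (0.53), *aah1* (-0.48) and *pof4* (-0.52) lay within 2-fold. Of these genes, *mug135*, *SPACUNK4.17*, *rsv2*, *SPAC25B8.12c* and *SPBPB10D8.01* share a locus.

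Values in the chaperone mutants at 24°C are given side by side with heat, from tables in which the same wild type library served as control. Since they share it, no correlation or overlap was computed. In *mas5Δ* cells 185 of 5186 genes rose (3.57%) and 212 fell (4.09%), and in *ssa2Δ* cells 429 of 5156 rose (8.32%) and 103 fell (2%). The deleted genes were low in their own libraries, *mas5* with a log2 ratio of -3.69 in *mas5Δ* and *ssa2* with -5.75 in *ssa2Δ*. For *hsp16* the log2 ratio was 8.19 in heat, 3.80 in *mas5Δ* and 6.61 in *ssa2Δ*. For *ssa1* the values in the same order were 6.53, 3.93 and 4.95, for *hsp104* 6.07, 3.43 and 4.51, and for *psi1* 4.96, 2.67 and 3.03. These chaperone genes were high in all 3 libraries, and highest after heat. They were picked among large rises in heat, a choice that favours this order.

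Some other genes that rose in heat lay within 2-fold in 1 of the mutants. *cdc37* had log2 ratios of 2.77 in heat, 0.27 in *mas5Δ* and 1.37 in *ssa2Δ*, and *tam11* had 4.88, 0.89 and 1.18. For *pka1* they were 2.63, 1.01 and 0.45, and for *SPAC27D7.09c* 5.69, 0.34 and 3.39. On the side of the falls, *gas1* had -3.07, -0.58 and -0.68, *exg1* -3.48, -0.03 and -0.18, and *cdc22* -2.10, -0.20 and -0.49. These 3 genes, large falls in heat, lay within 2-fold in both mutants. Others fell in all 3 comparisons. *SPAC1039.02* had -3.19, -2.53 and -3.12, *SPBC887.17* -3.43, -1.13 and -2.15, *frp1* -2.63, -2.03 and -3.49, and *str1* -3.11, -1.16 and -1.45. These and the genes before them were chosen after their values were seen. The median of the ribosome biogenesis list was -1.42 in heat, -0.86 in *mas5Δ* and -0.66 in *ssa2Δ*, and that of the heat stress-specific list 3.01, 0.92 and 2.32. That of the proteasome list was 0.65, 0.04 and 0.14. *pho84* lay at -3.85 in heat and 0.89 in *mas5Δ* and -1.15 in *ssa2Δ*, and *ght5* at -1.55, 3.23 and 0.42.

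**Figure D5:**
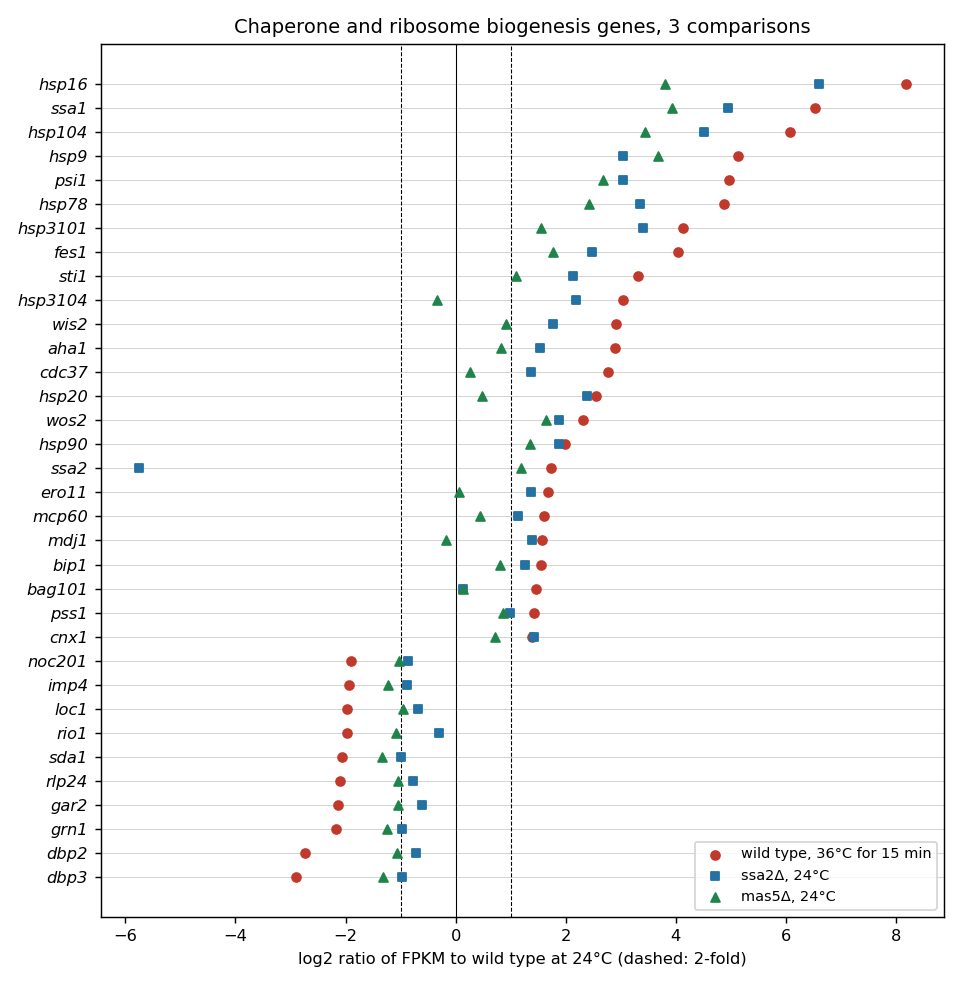
log2 ratio of FPKM to the wild type library at 24°C (horizontal; dashed lines at 2-fold) for 24 chaperone genes that rose and the 10 ribosome biogenesis genes with the largest falls (rows), in wild type after 15 min at 36°C (circles), *ssa2Δ* (squares) and *mas5Δ* (triangles) cells at 24°C. The rows were picked by their log2 ratio in heat, which favours circles far from 0. The circles lie farthest from 0 in most rows, and the deleted *ssa2* lies at -5.75 in its own strain.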

How the data were processed

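RNA of wild type cells at 24°C and after 15 min at 36°C was measured from poly-A selected, single-end libraries with reads of 50 bases, 1 per condition. The submitters' processing notes name FastQC, TopHat and Cuffdiff; their versions, the genome build and a strand setting are not given in the sources used here. The deposited FPKM values were made by the authors in tables of 2 libraries each, scaled separately; 3 tables were used. Their own fold change, test statistic, p-value and q-value columns were not used. Read counts were not recovered, so the depth is unknown and no counting interval is given.

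The log2 ratio was taken from FPKM without a pseudocount, within a table. With 1 library a condition no test was possible, and nothing states how cultures were grown apart, so a spread between cultures is unknown. Gene names came from RefSeq (ASM294v3), in which 6843 of 7008 identifiers matched; coordinates of 161 of 161 nuclear tRNA genes alone in their locus were the same there as in the deposited table, and promoters were read from that assembly. Alternatives were other minimums, pseudocounts, scalings, gene sets and folds, and genes of at least 300 bases, the last added after the data were seen. The calculation was tested on simulated data. Python 3.11.15, pandas 2.3.3, numpy 2.4.6, Biopython 1.88 and matplotlib 3.10.9 were used.

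Members and the 45 lists were chosen with earlier results of these data known. Of these lists 41 were written by hand and 4 came from the study's supplement. Genes were named by rule: the 20 largest rises and falls, in each list the members with the largest rise, the largest fall and the highest FPKM (up to 6, or all of up to 8), the 10 highest of each library, the genes of the study's qPCR and those next to the minimum. Other list members, the genes set side by side with the mutants and those shown with a promoter were named after their values were seen. By the rule 1 more gene would be named, which is not reported here and was left out of its list.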

Additional observations from a re-analysis of the deposited data

How the results depend on the processing

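With 1 library a condition the limit is the missing replicate, and leaving one out was not possible. No paired analysis was possible because each condition has 1 library and no test was made. The 607 rises became 314 at a mean of at least 50 FPKM, 179 among genes alone in their locus, and 1108, 316 and 226 at 1.5-, 3- and 4-fold. The 457 falls became 270, 198, 1025, 155 and 69 under the same settings, and 293 with a pseudocount of 10. Under the other settings rises numbered 447 to 904 and falls 401 to 665. Lists with a median past 2-fold numbered 9, and 7 to 12 under the alternatives. The median of the mitochondrial chaperones was 1.19, and -0.28 over its 3 members alone in their locus (*hsp78*, *mge1* and *tim44*), since the 4 other risen members share one. Among the 295 named genes, log2 ratios moved by more than 1.5-fold for 41 with a pseudocount of 10, 13 with 1 and 3 with 0.1. Under 3 scalings none could, since each shifts every log2 ratio by the same small amount (0.01, -0.11 and 0.05).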

Other observations

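The shares of changes were similar on the 3 chromosomes, with rises of 11.9% of members on chromosome I, 11.2% on II and 12.8% on III, and falls of 8.55%, 9.59% and 8.64%. Of the 607 genes that rose 261 have no gene symbol, and of the 457 that fell 89.

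*SPNCRNA.540* and *SPNCRNA.1165*, both listed below 1 FPKM at 24°C and each sharing a locus, had log2 ratios of 6.88 and 5.87 in heat, of 3.53 and 2.17 in *mas5Δ* and of -3.49 and -1.99 in *ssa2Δ*.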
